A study of Mus musculus with 8 samples.

Results

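UDP-glucuronosyltransferases (Ugt genes) and sulfotransferases (Sult genes) carry out the conjugation step of liver detoxification. They were taken as all rows whose gene symbol begins with Ugt1, Ugt2 or Ugt3 followed by a or b, or with Sult and a digit. That rule found 30 of 22923 entries, of which 12 were Ugt entries and 18 were Sult entries. Of the 30, 17 reached 1 RPKM (reads scaled by transcript length and by the mapped reads of the library) in at least 1 group, 11 of them Ugt and 6 Sult. RNA was sequenced from livers of C57BL/6 mice in 4 groups. The groups were Xbp1-/- mice lacking Xbp1 in the liver on regular chow, the same genotype on a high-fat diet given with a high-fructose corn syrup equivalent, Xbp1flox controls on chow, and Xbp1flox controls on the high-fat diet. The diets were given for 4 weeks. Each cohort held 4 mice, pooled into 2 libraries, and the deposited files give 1 value per gene and group. None of the differences below therefore has a replicate check, and neither the Cre driver nor the sex or age of the mice is given in the labels used here.

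Glucuronosyltransferases sit in the membrane of the endoplasmic reticulum (ER) and move glucuronic acid from UDP-glucuronate onto bilirubin, steroids, bile acids, drugs and phenols. Sulfotransferases are cytosolic and move a sulfonate group from 3'-phosphoadenosine-5'-phosphosulfate (PAPS) onto phenols, catecholamines, steroids and bile acids. Both reactions make a substrate more water-soluble, and the products leave hepatocytes through membrane transporters. Xbp1, the gene removed here, encodes a regulator of transcription that acts when unfolded protein builds up in the ER.

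Several entries cannot be read as single genes, and their sequences show why. The files join 8 Ugt1a symbols (Ugt1a1, Ugt1a10, Ugt1a2, Ugt1a5, Ugt1a6a, Ugt1a6b, Ugt1a7c and Ugt1a9) into 1 entry. In the GENCODE M21 annotation of GRCm38, the assembly that mm10 denotes, the 8 genes start at separate first exons on the plus strand of chromosome 1. The first-placed, Ugt1a10, spans chr1:88055388-88219004 and the last-placed, Ugt1a1, spans chr1:88211959-88218997. Their coding sequences share the last 737 bases exactly, so a read from there belongs to none of them in particular. The next lines give 60 coding bases of 3 of the genes across the point where the shared end begins, with the shared bases in capitals.
Ugt1a1: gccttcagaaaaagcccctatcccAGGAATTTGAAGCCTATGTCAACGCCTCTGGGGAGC
Ugt1a6a: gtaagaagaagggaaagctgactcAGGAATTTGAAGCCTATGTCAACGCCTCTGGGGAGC
Ugt1a9: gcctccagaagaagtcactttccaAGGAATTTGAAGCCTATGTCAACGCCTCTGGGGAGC

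The Ugt2b genes are separate entries, but some are near copies. Ugt2b5 (chr5:87124960-87140318, minus strand) and Ugt2b38 (chr5:87409942-87424203, minus strand) were identical at 97.0% of aligned coding bases, with 47 of 1590 different. Ugt2b5 and Ugt2b37 (chr5:87240493-87254804, minus strand) were identical at 94.7%. Of the 50-base stretches of the Ugt2b5 transcript, 41.7% also occur in another gene, against 37.4% for Ugt2b38 and 18.3% for Ugt2b37. Ugt2b1 (chr5:86916638-86926530, minus strand) shares none, and Ugt2b36 (chr5:87065927-87092555, minus strand) shares 0.326%. The levels of Ugt2b38 and Ugt2b37 are therefore uncertain, because reads of the far more abundant Ugt2b5 may be split among them, while Ugt2b1 has no such overlap. The lines below give coding bases 181 to 240, with capitals at the bases that differ from Ugt2b5.
Ugt2b5: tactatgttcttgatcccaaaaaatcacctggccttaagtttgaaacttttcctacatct
Ugt2b37: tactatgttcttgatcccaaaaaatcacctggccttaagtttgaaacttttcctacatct
Ugt2b38: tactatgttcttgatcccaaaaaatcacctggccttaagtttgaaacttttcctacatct
Ugt2b36: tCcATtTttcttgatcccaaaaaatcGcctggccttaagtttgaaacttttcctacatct
Ugt2b37 and Ugt2b38 have 0 differences from Ugt2b5 in this stretch, and Ugt2b36 has 5. Across the whole coding sequence, Ugt2b38 differs most from Ugt2b5 at coding bases 1467 to 1526, where 9 of 60 bases differ, printed in capitals in the second line here.
Ugt2b5: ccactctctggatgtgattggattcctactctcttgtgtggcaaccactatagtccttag
Ugt2b38: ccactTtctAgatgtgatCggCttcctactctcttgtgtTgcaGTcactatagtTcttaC

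Other near copies are less abundant or less alike. Ugt2a1 and Ugt2a2, also joined into 1 entry, were below 0.1 RPKM in all 4 groups. Ugt3a1 and Ugt3a2 on chromosome 15 were identical at 93.2% of coding bases and shared 9.38% of the 50-base stretches of Ugt3a1 with other genes. Sult1a1 shared 8.23% with the predicted gene Gm6939. Sult1b1, Sult1d1, Sult1e1 and Sult2a7 shared none, and Sult5a1 shared 1.36%.

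The Ugt entries together stood far above the 18 Sult entries under the symbol pattern in these livers. Summed RPKM of all Ugt entries was 2063 in knockout livers on chow, 1644 in knockout livers on high fat, 2189 in flox livers on chow and 1924 in flox livers on high fat. The sum of all Sult entries was 141 RPKM in knockout chow and 134 RPKM in knockout high fat, against 173 RPKM in flox chow and 165 RPKM in flox high fat. Ugt2b made up most of the Ugt total, with 1470 RPKM in knockout chow, 1172 in knockout high fat, 1520 in flox chow and 1304 in flox high fat. The joined Ugt1a entry came next, then Ugt3a and Ugt2a. Ugt3a summed to 170 and 130 RPKM in knockout livers on chow and high fat, against 190 and 184 RPKM in flox livers on chow and high fat. Ugt2a summed to 97.8 and 65.7 RPKM in knockout livers on chow and high fat, against 125 and 121 RPKM in flox livers on chow and high fat. Among these 18 Sult entries, Sult1 held most of the total, with 129 and 127 RPKM in knockout livers on chow and high fat, against 160 and 155 RPKM in flox livers on chow and high fat. The Sult2 and Sult5 entries under the symbol pattern stayed below 12 RPKM in every group. A Sult2a gene listed under an older symbol is left out of these sums. It had more RPKM than the 18 Sult entries together in each group, and its values are given below.

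**Figure D1:**
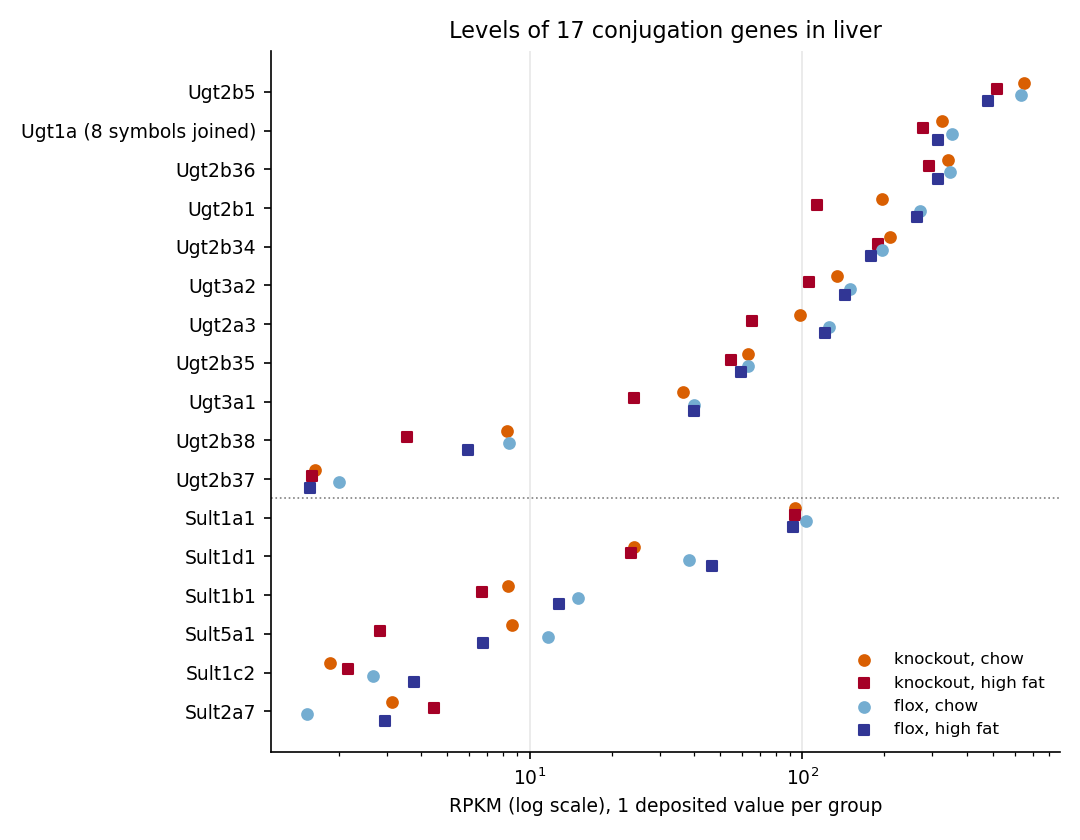
Deposited RPKM (log scale) of the 17 entries that reached 1 RPKM, with 1 point per group and Ugt entries above Sult entries. Ugt2b5 was the highest in all 4 groups (479 to 649 RPKM), and the knockout high-fat point of Ugt2b1 (113 RPKM) stands apart from its other 3 points (195 to 269 RPKM).

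Xbp1 itself was lower in the knockout files, at 39.6% of the flox level on chow and 37.6% on high fat, and the whole-gene value does not show which exons remain. The sum over all genes differed between files, at 461392, 367414, 513694 and 461725 RPKM in knockout chow, knockout high fat, flox chow and flox high fat. A change is given as log2((tested RPKM + 1)/(control RPKM + 1)), which understates changes of low genes, and a gene is said to have risen or fallen when that value was at least 1 in size. In knockout against flox livers on high fat, the median change of all genes tested was -0.13. It became 0.01 when each group was rescaled to a median log2 ratio of 0, and 0.12 when each group was rescaled so that all genes other than the 50 most abundant had equal sums. The counts of all genes that rose and fell in that comparison were 111 and 192 as deposited, 142 and 120 after the first rescaling, and 193 and 90 after the second. The depth per library is unknown.

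On chow, 0 of the 17 tested entries rose and 0 fell in knockout against flox livers, where 0.252% of 10322 genes rose and 1.37% fell. Their median change was -0.14, beside -0.02 for all genes, and it was 0.01, beside 0.10 for all genes, without the 50 most abundant genes in the scaling. Of the 17, 14 lay below 0 (82.4%), beside 54.2% of all genes. Of these 14, 8 stayed there under both rescalings and 6 (Ugt1a, Ugt3a1, Ugt2b35, Ugt2b36, Ugt2b38 and Sult1a1) were above 0 under at least 1. The largest changes were in 3 Sult genes and are given below.

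On high fat, 2 of 17 entries fell in knockout against flox livers, Ugt2b1 and Sult5a1, and 0 rose. Among all 10327 genes tested, 1.86% fell and 1.07% rose. The count of falls was 1 after rescaling on the median (Ugt2b1) and 0 once the 50 most abundant genes were left out of the scaling. The median change of the 17 was -0.44, beside -0.13 for all genes, and it was -0.13, beside 0.12, without the 50 most abundant genes in the scaling. Of the 17, 12 lay below 0 (70.6%), beside 70.1% of all genes, and Ugt1a, Ugt2b35 and Ugt2b36 were above 0 under at least 1 rescaling. The share below 0 was thus close to the background, while the spread was wide, with changes between -1.21 and 0.47.

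**Figure D2:**
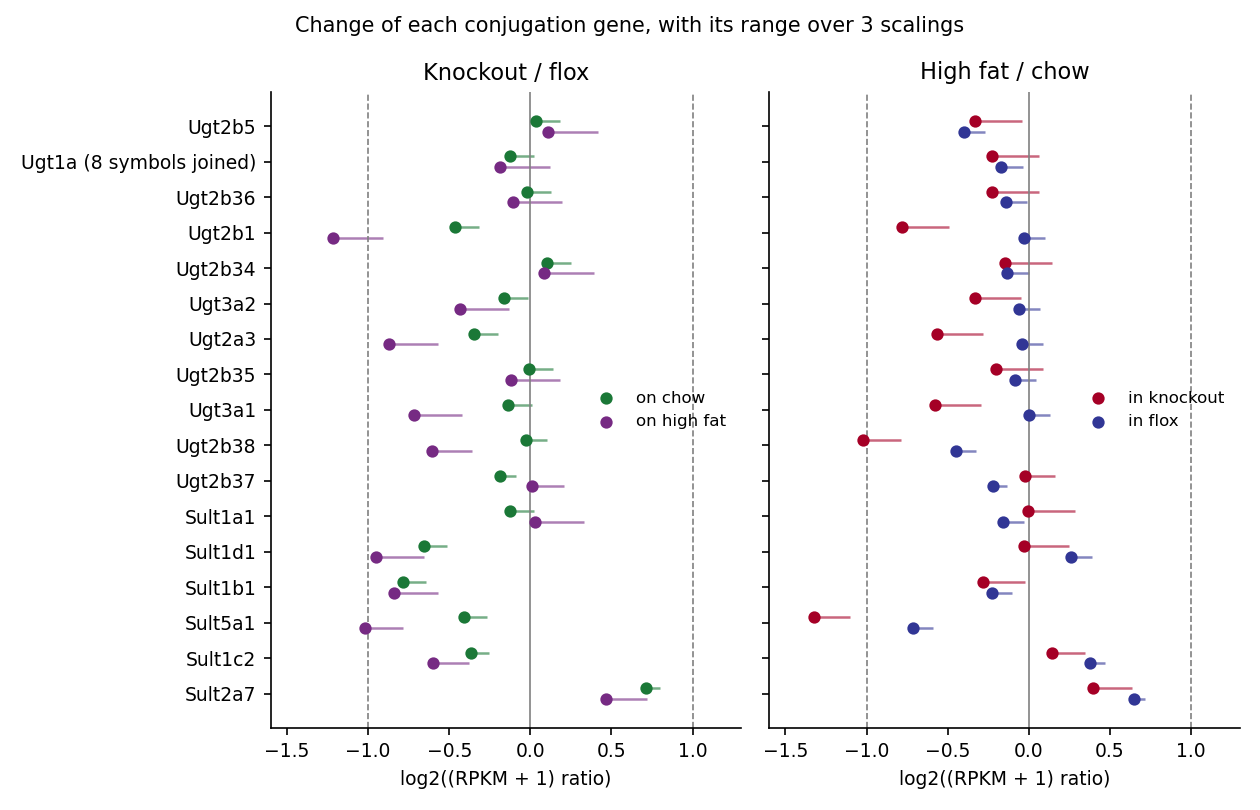
Log2 ratio of RPKM + 1 for each of the 17 entries, knockout over flox (left) and high fat over chow (right). Points are the deposited values, horizontal lines span the deposited values and 2 rescalings, and dashed lines mark 2-fold. Ugt2b1 on high fat lies at -1.21 and reaches -0.91 under rescaling, while Ugt2b5 lies at 0.11.

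**Figure D3:**
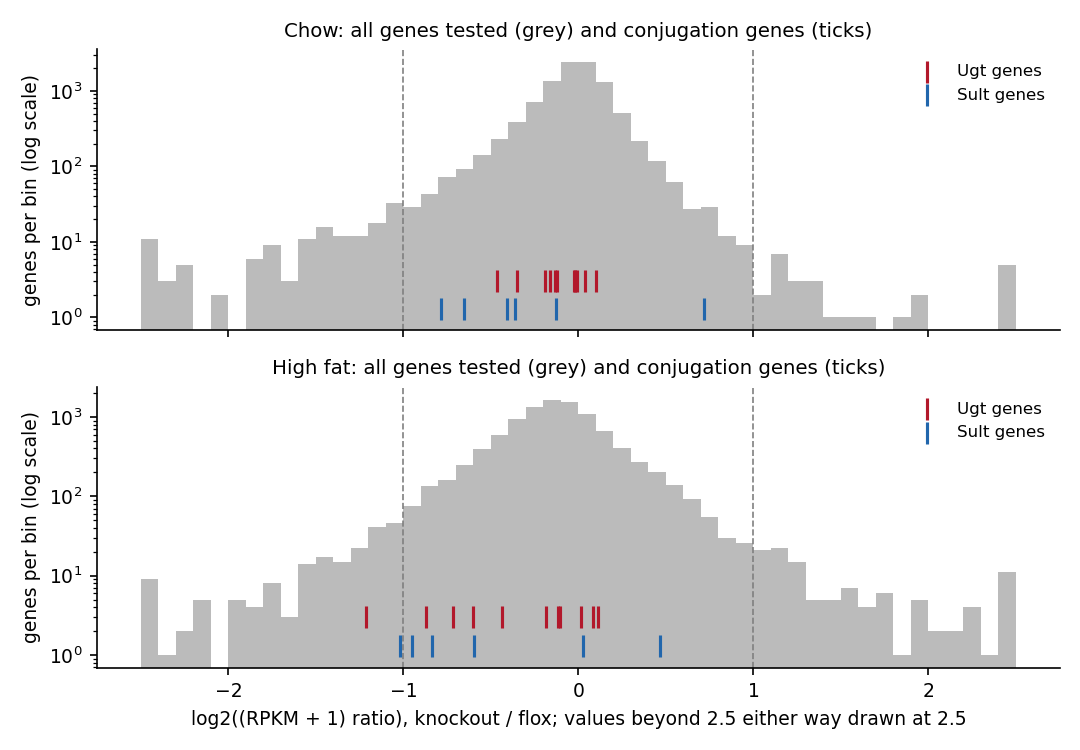
Number of genes per bin (log scale) by log2 ratio of RPKM + 1, knockout over flox, for chow (top) and high fat (bottom), with the Ugt and Sult entries as ticks. On chow all 17 ticks lie between -0.78 and 0.71, and on high fat Ugt2b1 (-1.21) and Sult5a1 (-1.02) lie past the dashed 2-fold line.

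The Ugt1a entry covers the enzymes for bilirubin (Ugt1a1) and for simple phenols (Ugt1a6a and Ugt1a6b). It had 325 RPKM in knockout chow, 277 RPKM in knockout high fat, 354 RPKM in flox chow and 315 RPKM in flox high fat. Its change was -0.13 on chow and -0.18 on high fat, and both values were above 0 without the 50 most abundant genes (0.02 and 0.12). A shift between the 8 joined genes would not show in their shared value.

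Ugt2b enzymes conjugate steroids, bile acids and many drugs. Ugt2b5 was the most abundant of the 30 entries, ranking between 91 and 143 among all genes. It had 649 RPKM in knockout chow and 517 RPKM in knockout high fat, against 633 RPKM in flox chow and 479 RPKM in flox high fat. Its knockout changes were 0.04 and 0.11, with the knockout level at 103% of flox on chow and 108% on high fat. Ugt2b36 had 343 and 293 RPKM in knockout chow and knockout high fat, against 348 and 315 RPKM in flox chow and flox high fat. Ugt2b34 had 210 and 189 RPKM in knockout livers on the 2 diets, against 196 and 178 RPKM in flox livers. Ugt2b35 had 63.1 and 54.8 RPKM in knockout livers, against 63.5 and 59.6 RPKM in flox livers. These 3 neighbours of Ugt2b5 had knockout changes between -0.12 and 0.10, and those of Ugt2b35 and Ugt2b36 changed sign under rescaling.

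Ugt2b1, known as a male-predominant Ugt in mouse liver, differed more between the genotypes. It had 195 RPKM in knockout chow and 113 RPKM in knockout high fat, against 269 RPKM in flox chow and 264 RPKM in flox high fat. The knockout level was 72.4% of flox on chow (change -0.46) and 42.9% on high fat (change -1.21). Rescaling moved the second value to -1.05 or -0.91. The ratio of Ugt2b1 to Ugt2b5 within a group does not depend on scaling. Ugt2b1 stood at 30.1% of Ugt2b5 in knockout chow livers and 21.9% in knockout high-fat livers, against 42.6% in flox chow and 55.1% in flox high fat. Its share of the summed Ugt2 RPKM was 12.4% and 9.15% in knockout livers on chow and high fat, against 16.4% and 18.5% in flox livers. The relative place of Ugt2b1 among its neighbours was therefore lower in knockout livers on both diets, and lowest on high fat.

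The 2 low Ugt2b entries had few RPKM and overlap with Ugt2b5 in sequence. Ugt2b38 had 8.26 RPKM in knockout chow and 3.56 RPKM in knockout high fat, against 8.44 RPKM in flox chow and 5.93 RPKM in flox high fat. Its knockout changes were -0.03 on chow, where the sign turned under rescaling, and -0.60 on high fat. Ugt2b37 had 1.63 and 1.59 RPKM in knockout livers on chow and high fat, against 1.999 and 1.57 RPKM in flox livers.

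Ugt2a3 was the abundant member of Ugt2a; its human counterpart conjugates bile acids. It had 97.8 RPKM in knockout chow and 65.6 RPKM in knockout high fat, against 125 RPKM in flox chow and 121 RPKM in flox high fat. Its changes of -0.35 on chow and -0.87 on high fat did not pass 2-fold. Relative to Ugt2b5 it stood at 15.1% and 12.7% in knockout chow and high fat, against 19.7% and 25.3% in flox chow and high fat. Ugt2a3 thus had the same order of groups as Ugt2b1, with the knockout high-fat value lowest.

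The human Ugt3a enzymes use other UDP-sugars than UDP-glucuronate. Ugt3a1 had 36.4 RPKM in knockout chow and 24.1 RPKM in knockout high fat, against 40.2 RPKM in flox chow and 40.3 RPKM in flox high fat. Ugt3a2 had 134 and 106 RPKM in knockout livers on chow and high fat, against 150 and 144 RPKM in flox livers. On high fat their knockout changes were -0.72 and -0.44. Both kept that sign under rescaling, and neither passed 2-fold.

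The genes of Ugt2 and of 3 Sult1 enzymes lie side by side on chromosome 5, between 86889767 and 87591594. In genome order they are Ugt2b34, Ugt2b1, Ugt2b35, Ugt2b36, Ugt2b5, Ugt2b37, Ugt2a3, Ugt2b38, Ugt2a1 with Ugt2a2, Sult1b1, Sult1d1 and Sult1e1. All are on the minus strand except Ugt2b35. Ugt2b34 (0.09 on high fat) and Ugt2b1 (-1.21 on high fat) are direct neighbours, so low values did not follow position along the left part of the cluster. Toward the right end, Ugt2a3, Ugt2b38, Sult1b1 and Sult1d1 all had values between -0.95 and -0.60 on high fat.

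**Figure D4:**
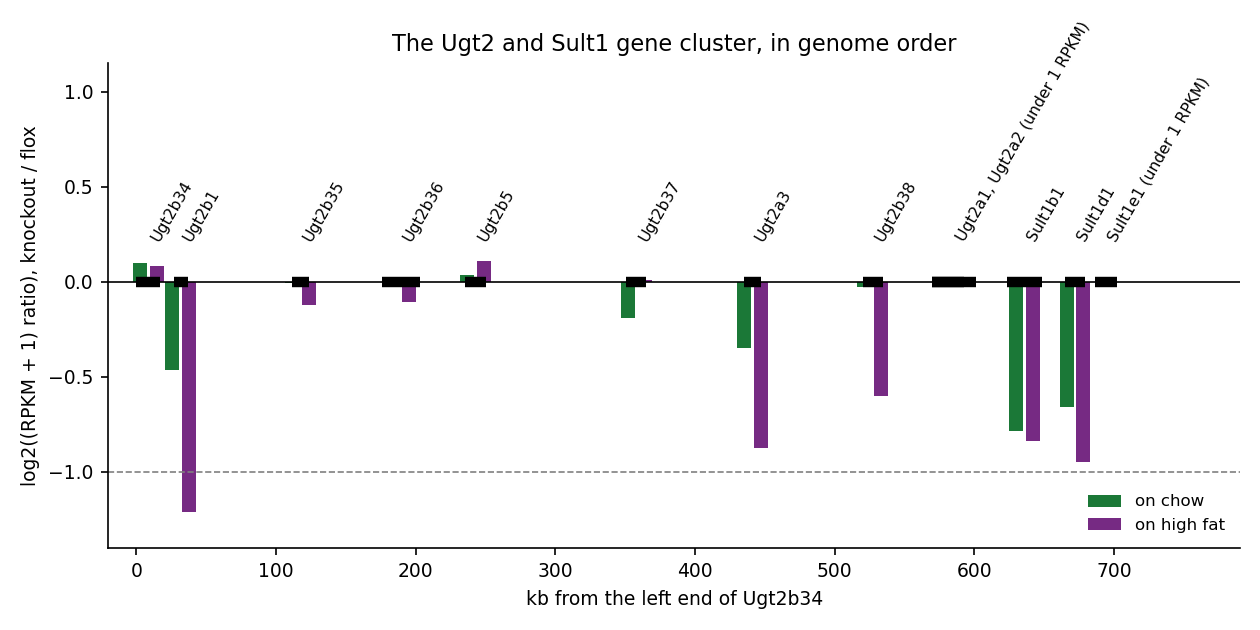
Knockout over flox log2 ratio of RPKM + 1 on chow and on high fat for the chromosome 5 genes, at their distance in kb from the left end of Ugt2b34; black blocks on the zero line are the gene bodies. Ugt2b1 has the lowest bar (-1.21 on high fat) beside Ugt2b34 (0.09), and Sult1b1 and Sult1d1 have low bars on both diets.

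Sult1a1, the general phenol sulfotransferase, was the most abundant of the 18 Sult entries and lay within 92.2 to 103 RPKM. It had 94.4 RPKM in knockout chow and 94.1 RPKM in knockout high fat, against 103 RPKM in flox chow and 92.2 RPKM in flox high fat. Its changes were -0.13, which turned to 0.02 without the 50 most abundant genes, and 0.03.

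Sult1d1, which sulfonates catecholamines in mice, and Sult1b1, which acts on thyroid hormones, were lower in knockout livers on both diets. Sult1d1 had 24.1 RPKM in knockout chow and 23.6 RPKM in knockout high fat, against 38.6 RPKM in flox chow and 46.5 RPKM in flox high fat. Sult1b1 had 8.36 and 6.70 RPKM in knockout chow and high fat, against 15.1 and 12.8 RPKM in flox chow and high fat. Both knockout values of each gene lay below both of its flox values. The changes on chow and high fat were -0.66 and -0.95 for Sult1d1, and -0.78 and -0.84 for Sult1b1. They kept their sign under rescaling and did not pass 2-fold. Relative to Sult1a1, Sult1d1 stood at 25.5% and 25.1% in knockout chow and high fat, against 37.4% and 50.4% in flox chow and high fat. The same ratio for Sult1b1 was 8.85% and 7.12% in knockout livers, against 14.7% and 13.9% in flox livers.

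Sult1c2 was low, at 1.86 RPKM in knockout chow and 2.16 RPKM in knockout high fat, against 2.68 RPKM in flox chow and 3.79 RPKM in flox high fat. Sult1e1, the estrogen sulfotransferase, stayed at or below 0.151 RPKM in all groups. Sult5a1 had 8.61 RPKM in knockout chow and 2.83 RPKM in knockout high fat, against 11.7 RPKM in flox chow and 6.77 RPKM in flox high fat. The knockout level was 73.4% of flox on chow (change -0.41) and 41.8% on high fat (change -1.02). The second value sits close to the 2-fold line and became -0.89 or -0.78 under rescaling.

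Sult2a enzymes sulfonate hydroxysteroids and bile acids. Sult2a7 was the only one of the 17 with a knockout change above 0.3 on both diets in the deposited values. It had 3.14 RPKM in knockout chow and 4.45 RPKM in knockout high fat, against 1.52 RPKM in flox chow and 2.95 RPKM in flox high fat. The knockout level was 206% of flox on chow (change 0.71) and 151% on high fat (change 0.47). Both changes kept their sign under rescaling. Neither passed the threshold, because the pseudocount of 1 RPKM lowers the chow change of this low gene.

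The other 13 entries stayed below 1 RPKM in every group, with a highest value of 0.151 RPKM. They were the joined Ugt2a1 and Ugt2a2, Sult1c1, Sult1e1, Sult2a1 to Sult2a6, Sult2b1, Sult3a1, Sult4a1 and Sult6b1. Of these, Sult1c1, Sult2a3, Sult2a4, Sult2a5 and Sult2a6 were listed at 0 in all 4 groups. A listed 0 may be a failed estimate, since Alb, the gene of serum albumin, was also listed at 0 in all 4 groups. Near-identical Sult2a genes are also hard to separate, with 62.1% of the 50-base stretches of Sult2a2 found in another gene.

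A sulfotransferase outside the symbol pattern was examined after its values were seen. 2810007J24Rik is an older symbol of Sult2a8, which sulfonates bile acids in mouse liver. It had 358 RPKM in knockout chow and 182 RPKM in knockout high fat, against 445 RPKM in flox chow and 404 RPKM in flox high fat. That is above the sum of the 18 Sult entries in each group. The knockout level was 80.5% of flox on chow (change -0.31) and 45.0% on high fat (change -1.15). After rescaling, the second value was -0.98 or -0.84, short of 2-fold. Relative to Sult1a1 it stood at 379% and 193% in knockout chow and high fat, against 431% and 438% in flox chow and high fat. Gm4794 (Sult3a2) and Gm766 (Sult6b2) were listed at 0 in all 4 groups.

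The diet comparison asked how high-fat feeding differed from chow within a genotype. In knockout livers, 2 of 17 entries fell on high fat, Ugt2b38 and Sult5a1, and 0 rose, beside 0.794% of 10328 genes that fell and 0.668% that rose. Sult5a1 fell under both rescalings as well, and Ugt2b38 under neither (-0.90 and -0.79). In flox livers 0 of 17 rose and 0 fell on high fat, beside 0.213% and 0.426% of all genes. The median change of the 17 was -0.23 in knockout and -0.13 in flox livers, beside -0.11 and -0.01 for all genes. Without the 50 most abundant genes in the scaling, the medians of the 17 were 0.06 in knockout and 0.00 in flox livers, beside 0.13 and 0.09 for all genes.

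Sult5a1 had the largest diet changes, -1.33 in knockout and -0.71 in flox livers. Ugt2b38 had -1.02 in knockout and -0.45 in flox livers. Ugt2b5, the most abundant, had -0.33 in knockout and -0.40 in flox livers and kept its sign under rescaling in both. Ugt2b1 had -0.78 in knockout livers and -0.03 in flox livers, where the sign turned under rescaling. Ugt2a3 had -0.57 in knockout and -0.04 in flox livers, where its sign also turned, and Ugt3a1 had -0.58 in knockout and 0.00 in flox livers. In the deposited values these 3 genes thus had diet changes near 0 in flox livers and below -0.5 in knockout livers. Sult2a7 (0.40 in knockout, 0.65 in flox) and Sult1c2 (0.14 in knockout, 0.38 in flox) lay above 0 in both genotypes under each scaling. The difference between the 2 knockout changes (high fat minus chow) reached 2-fold in 0 of 17 entries, beside 0.659% and 0.572% of 10319 genes up and down. It was lowest for Ugt2b1 (-0.75) and Sult5a1 (-0.61).

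Promoter letters were searched for motifs on both strands in RefSeq promoters (GRCm38.p6, 250 bases before to 50 bases after the start), which were found for 32 of the 38 symbols. The XBP1 motif TGACGTG occurred in 0 of 32, beside 1.99% of the 27025 promoters searched. The antioxidant response motif TGACNNNGC occurred in 0 of 32, beside 12.5% of those promoters. A match or its absence describes the letters of this window and says nothing of binding.

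The medians of 2 gene lists around the co-substrates lay on opposite sides of 0 in the knockout comparisons. Both lists also hold genes that do not themselves make the co-substrate, so their medians do not measure its supply. Of 4 genes on the UDP-glucuronate list (Ugp2, Ugdh, Slc35d1 and Entpd5), 0 rose and 0 fell in either knockout comparison. The medians were 0.13 on chow and 0.33 on high fat, and all 4 were above 0 under each scaling. Ugdh, which oxidises UDP-glucose to UDP-glucuronate, had 80.5 and 74.6 RPKM in knockout chow and high fat, against 73.4 and 45.5 RPKM in flox chow and high fat. Its high-fat change was 0.70. It passed 2-fold only without the 50 most abundant genes in the scaling. Slc35d1, which carries UDP-glucuronate into the ER, had 23.9 and 24.1 RPKM in knockout livers, against 22.2 and 20.9 RPKM in flox livers.

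The PAPS list held Papss1, Papss2, Slc35b2, Slc35b3, Bpnt1, Impad1, Slc26a1, Slc26a2 and Suox. Of these 9 genes, 8 were tested (all but Slc26a2), and 0 rose or fell in either knockout comparison. The median was -0.27 on chow and -0.33 on high fat, and it stayed below 0 under both rescalings. Of the 8, 6 lay below 0 on chow and 8 on high fat as deposited, where 70.1% of all genes did, and on high fat 5 and 4 did under the 2 rescalings. Without the 50 most abundant genes in the scaling, the medians were -0.14 on chow and -0.08 on high fat. Papss2, the main PAPS synthase of liver, had 43.2 and 31.6 RPKM in knockout chow and high fat, against 63.3 and 54.5 RPKM in flox chow and high fat (changes -0.54 and -0.77). Slc26a1, a sulfate transporter of hepatocytes, had 40.5 and 32.6 RPKM in knockout livers, against 57.4 and 53.0 RPKM in flox livers.

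Transporters that move conjugates and other organic anions were tested for 13 genes. On chow 0 rose and 0 fell in knockout livers. On high fat 2 fell, the uptake carriers Slco1a4 and Slco2b1, and 0 rose, beside 1.86% and 1.07% of all genes. Slco1a4 had 6.50 and 1.71 RPKM in knockout chow and high fat, against 11.0 and 6.24 RPKM in flox chow and high fat (high-fat change -1.42, and past 2-fold under both rescalings). Slco2b1 had 22.8 and 18.5 RPKM in knockout livers, against 37.4 and 40.6 RPKM in flox livers (high-fat change -1.09, and short of 2-fold under both rescalings). Abcc2, the canalicular exporter of glucuronides, had 37.6 and 54.1 RPKM in knockout livers, against 51.2 and 75.6 RPKM in flox livers (changes -0.43 and -0.47). Abcc4, an exporter of conjugates to the blood side, had 1.59 RPKM in knockout high fat, against 0.427 RPKM in flox high fat. The pseudocount of 1 RPKM makes its change (0.86) smaller than the ratio of these low values. With that pseudocount it rose only without the 50 most abundant genes in the scaling. It was tested only because it reached 1 RPKM in knockout high fat. Of 4 deconjugating enzymes, 0 rose and 0 fell on either diet.

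**Figure D5:**
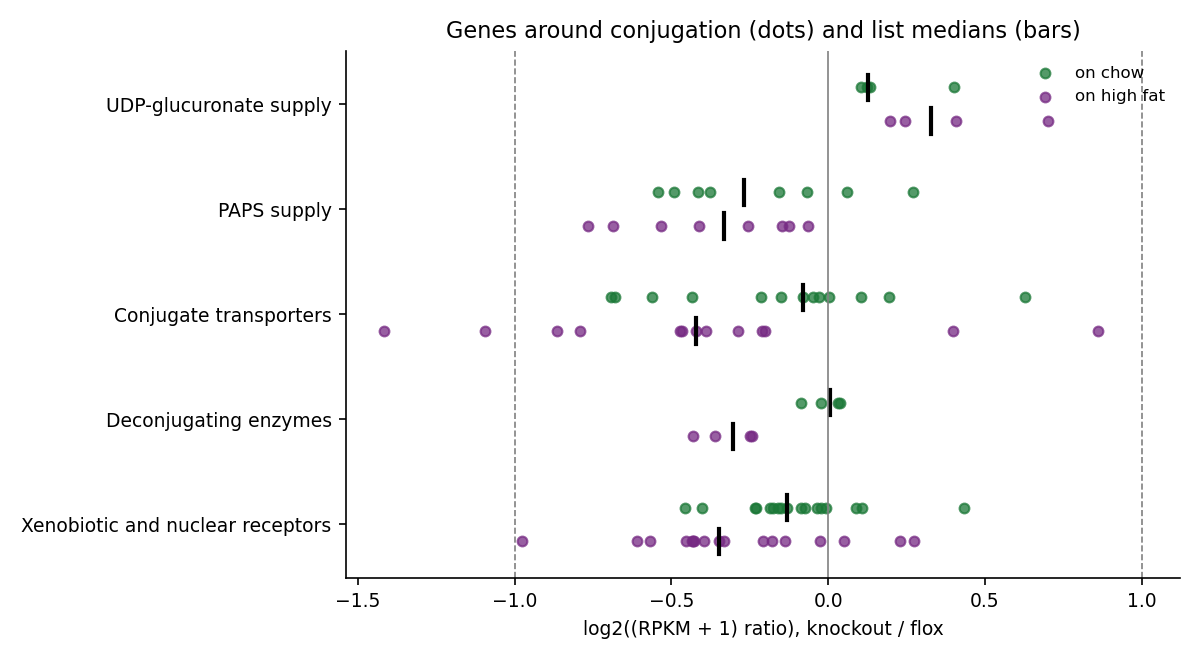
Knockout over flox log2 ratio of RPKM + 1 for genes around conjugation, on chow and on high fat, with 1 dot per gene and a black bar at each list median. The medians of the list labelled UDP-glucuronate supply are 0.13 and 0.33, and those of the list labelled PAPS supply are -0.27 and -0.33. The 2 transporter dots past -1 on high fat are Slco1a4 and Slco2b1.

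Of 17 xenobiotic and nuclear receptor genes, among them those that control Ugt and Sult genes, 0 rose and 0 fell in either knockout comparison. Genes known as targets of those receptors did not move in 1 direction. Of 12 tested on chow, 0 rose and 2 fell, Cyp4a10 (-2.23) and Cyp1a2 (-1.41), beside 0.252% and 1.37% of all genes. On high fat 4 rose and 1 fell, beside 1.07% and 1.86% of all genes. The largest of these rises was Gstm3, a glutathione transferase, at 384 RPKM in knockout and 19.4 RPKM in flox livers (4.24). Cyp2b9 had 4.99 RPKM in knockout high fat, against 1.34 RPKM in flox high fat (1.36). The 4 rises passed under both rescalings, and the 1 fall, Cyp1a2 (-1.05), under neither.

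Several Ugt and Sult genes are sex-biased in mouse liver, and genes with known sex bias moved in the same comparison as Ugt2b1. On high fat, 2 of 7 female-biased genes rose in knockout livers and 1 fell, and 6 of 17 male-biased genes fell and 0 rose. Among all genes in that comparison, 1.07% rose, 1.86% fell and 70.1% lay below 0. Among the female-biased, Cyp2a4 had 80.3 RPKM in knockout high fat, against 2.38 RPKM in flox high fat, and Lifr had 23.9 against 55.2 RPKM. Cyp2b9 was the other that rose. The largest male-biased falls were Serpina1e (-1.98, listed at 0 in both chow groups), Mup21 (-1.75) and Mup3 (-1.74). Cyp2u1 (-1.25) and Cyp4a12b (-1.22, and -1.47 on chow) fell too, and without the 50 most abundant genes in the scaling Cyp4a12b no longer fell on high fat while Cyp2u1 did. The male-biased falls numbered 5 and 4 under the 2 rescalings, and the female-biased rises 3 under each. Lifr no longer fell on either diet without the 50 most abundant genes in the scaling. Mup, Serpina1, Cyp2a and Cyp4a genes have near-identical copies, so the value of a single one is uncertain. In knockout high fat Serpina1e had 2537 RPKM and its copy Serpina1c 3004 RPKM, against 10004 and 0 RPKM in flox high fat. The fall of Serpina1e is therefore uncertain. On chow, Cyp2a4 rose (1.45), Lifr fell (-1.10) and Cyp4a12b fell. The part of sex-linked regulation in the Ugt and Sult values was not tested.

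Liver markers were present, and markers of other cells differed between the groups that were compared. In bulk RNA, fewer cells of a type and less RNA per cell cannot be told apart. Of 10 hepatocyte markers tested, 1 fell on chow (Cyp2e1, -1.20) and 3 fell on high fat in knockout livers (Cyp2e1, -1.63; Apoa1, -1.23; Cps1, -1.04). Only Cyp2e1 fell on high fat under both rescalings. For this list and those that follow, the shares of all genes on chow were 0.252% that rose and 1.37% that fell. On high fat they were 1.07% that rose and 1.86% that fell. Of 10 cholangiocyte and progenitor markers, 0 rose on chow and 5 rose on high fat, and the summed level of the 13 listed was 59.3 and 134 RPKM in knockout chow and high fat, against 35.2 and 37.6 RPKM in flox chow and high fat. Spp1 alone held most of that sum, with 39.4 and 103 RPKM in knockout chow and high fat, against 19.7 and 20.6 RPKM in flox chow and high fat. Without Spp1 the list summed to between 19.9 and 30.9 RPKM in the knockout groups and at least 15.5 RPKM in the flox groups, highest in knockout high fat. The largest rises were in Spp1 (2.27), Tspan8 (1.53), Cd24a (1.44) and Epcam (1.21). Of the 5 that rose, Tspan8, Epcam and Anxa13 reached 1 RPKM only in knockout groups. They were tested only through the groups where they were high, so the filter favoured rises in knockout livers. Of 11 macrophage markers, Cd9 (1.36) and Trem2 (1.29) rose on high fat, and the 12 listed summed to 180 and 293 RPKM in knockout livers, against 176 and 212 RPKM in flox livers. Trem2 was likewise tested only because it reached 1 RPKM in knockout high fat. Of 13 endothelial and stellate markers, Col3a1 (1.23) and Col1a1 (1.21) rose on high fat, and the 14 listed summed to 186 and 228 RPKM in knockout livers, against 171 and 163 RPKM in flox livers. Without Dcn, the most abundant, they summed to 78.6 and 98.1 RPKM in knockout chow and high fat. The flox chow and high-fat sums were then 84.1 and 83.3 RPKM, so the order on chow turned. The endothelial markers Pecam1, Stab2, Lyve1, Kdr, Clec4g and Cdh5 lay between -0.64 and 0.05 on high fat. No marker of these 3 other lists fell. The part of cell makeup in the lower Ugt2b1, Sult1d1, Sult1b1 and Sult5a1 values was not tested. Of the kidney and gut list, Fabp2, which hepatocytes may also express, fell on both diets (-1.05 and -1.93), while kidney Umod and Aqp2 were listed at 0 in all groups. Without the 50 most abundant genes in the scaling, Fabp2 no longer fell on chow but still did on high fat. Of the 10 pancreas markers, 1 (Cela1) reached 1 RPKM and it did not pass 2-fold in a knockout comparison.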

How the data were processed

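The 4 deposited files hold RPKM, per the file headers, with 1 value per gene and group for 8 libraries. The submitters' processing notes list TopHat2 2.0.7, Cuffdiff 2.1.1 and mm10 without saying what each was used for. How the authors combined libraries and annotated genes is not given in the sources used here. Rows of 158 repeated symbols were summed (0 of them Ugt or Sult). Low values times transcript length were searched for whole-read steps. Between 15.6% and 18.8% lay within 0.05 of a step, too few to recover reads, so depth is unknown and no test, p-value or interval is given.

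A gene was compared if it reached 1 RPKM in any group and was not listed at 0 in a compared group, with a pseudocount of 1 RPKM and a threshold of 2-fold. The text names every Ugt or Sult entry that reached 1 RPKM, Xbp1, and from each of 14 gene lists the genes past the threshold in a knockout comparison (the 4 largest where more passed). Genes of the 2 co-substrate lists, transporters (Abcc2 and Abcc4), Cyp2u1 and Sult2a8, which fall outside that rule, were named after their values were seen. The same holds for Anxa13, Serpina1c, Dcn and the endothelial markers named. The members and lists were chosen with earlier results of these data known.

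Coding sequences came from GENCODE M21 and promoters from RefSeq; 1 further motif searched is not reported here. Steps were tested on simulated data. Alternatives were no filter, a filter of 5 RPKM, pseudocounts of 0.1 and 5, a 1.5-fold threshold, the highest of repeated rows, zeros kept at 0, and the 2 rescalings. Python 3.11.15, numpy 2.4.6, pandas 2.3.3, Biopython 1.88 and matplotlib 3.10.9 were used.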

Additional observations from a re-analysis of the deposited data

How the results depend on the processing

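No paired analysis was possible because each group has 1 deposited value, and no library could be left out. The count of Ugt and Sult entries that fell in knockout against flox livers on high fat was 2, and it became 1 with a pseudocount of 5 RPKM, 8 at 1.5-fold (where 8.33% of all genes fell), 1 after rescaling on the median and 0 once the 50 most abundant genes were left out of the scaling. The count that fell on high fat against chow in knockout livers was 2, and it became 0 with a pseudocount of 5, 1 under each rescaling, and 3 (Ugt2b1, Ugt2b38 and Sult5a1) at 1.5-fold, where 4.70% of all genes fell. At 1.5-fold, 1 entry (Sult2a7) rose and 2 (Sult1b1 and Sult1d1) fell in knockout against flox livers on chow, beside 1.09% and 3.84% of all genes. At 1.5-fold, 1 (Sult2a7) rose and 1 (Sult5a1) fell on high fat in flox livers, beside 1.23% and 1.68%. The difference between the knockout changes passed 1.5-fold for 2 entries (Ugt2b1 and Sult5a1), both lower, beside 3.03% of all genes. The causes were not tested, apart from the lower threshold itself. The counts were the same with a pseudocount of 0.1 and with a filter of 5 RPKM. No filter, the highest of repeated rows, and zeros kept at 0 could not change them. The Ugt and Sult symbols are not repeated, and no tested entry was listed at 0. The untested entries reached at most 0.151 RPKM, too low to pass with a pseudocount of 1 RPKM. The subfamily sums could not move by 1.5 times under the 2 rescalings, which multiply every sum of a group by 1 factor. The log2 factors lay between -0.27 and 0.17. The highest of repeated rows could not change these sums either, so neither is a check on them. Low entries (Ugt2b38 and Sult5a1) are the ones whose calls a pseudocount of 5 ended. With 1 value per group, the spread between libraries is unknown.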
